A study of Mus musculus with 9 samples.

Results

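S100 proteins and annexins are calcium-responsive proteins that meet at cell membranes, and 10 of their genes were described in the livers of hyperlipidemic mice: S100a1, S100a6, S100a8, S100a9, S100a10, S100a11, Anxa2, Anxa4, Anxa5 and Anxa6. They are 10 of the 27179 genes in the table of read counts. They were selected on the read counts of these same libraries, with the difference between the genotypes known, so each difference between the genotypes in them is given as a description, with no test. S100a10 is set beside Anxa2, its binding partner, and beside the other genes.

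The bulk RNAseq compared livers of Apoe-/- mice (5 libraries) with livers of Mif-2-/- Apoe-/- mice (4 libraries). All were fed a cholesterol-rich, Western-type high-fat diet (HFD) for 12 weeks from 8 weeks of age. The paper describes its main groups on HFD for 12 weeks as female, though males were also studied, and its Apoe-/- line as C57BL/6. The sample titles give neither sex nor strain. Mif-2, listed under its other symbol Ddt, encodes the cytokine MIF-2, and the comparison asks what its loss changes in the fatty liver of atherosclerosis-prone mice. Both groups lack Apoe, the apolipoprotein that lets the liver clear lipoprotein remnants, so that no group has normal blood lipids, and the Apoe-/- group, called WT in the labels, is wild type at Mif-2 alone. Mif-2 is missing from every cell of the Mif-2-/- Apoe-/- mice, so a change in liver RNA cannot be assigned to a loss in the liver.

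S100 proteins are small dimers with EF-hand calcium-binding loops, and calcium exposes a surface through which they grip target proteins. Annexins bind acidic phospholipids in the presence of calcium and gather on the inner face of membranes. S100a10 is the exception in its family, since its loops no longer bind calcium. It sits in a stable complex with Anxa2 that holds channels, the scaffold Ahnak and plasminogen at the cell surface, while S100a8 and S100a9 form calprotectin, an abundant protein of neutrophils and other myeloid cells.

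The S100 genes lie together. In RefSeq's GRCm38.p6 annotation, 14 of the 17 S100 genes considered here are on chromosome 3. S100a10 (Entrez 20194) is at chr3:93555117-93564645 and S100a11 (Entrez 20195), its next neighbour among these genes, at chr3:93520496-93526288, 28828 bases away. S100a8 (Entrez 20201) at chr3:90669071-90670034 and S100a9 (Entrez 20202) at chr3:90692630-90695721 are 22595 bases apart. S100a6 (Entrez 20200) is at chr3:90612894-90614414. S100a1 (Entrez 20193) at chr3:90511034-90514330 overlaps S100a13 by 98 bases, and the library type used here (Smart-seq2) does not mark the strand, so reads in the overlap cannot be told apart. The annexin genes are scattered, with Anxa2 (Entrez 12306) at chr9:69453683-69491792, Anxa4 (Entrez 11746) at chr6:86736840-86793634, Anxa5 (Entrez 11747) at chr3:36448923-36475887 and Anxa6 (Entrez 11749) at chr11:54978953-55033471.

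RefSeq's promoter table for GRCm38.p6 held 8 of the 10 genes, with 9 start sites, and lacked S100a10 and Anxa6. The 140 bases before the start site are shown for the partner Anxa2, for S100a11, the neighbour of S100a10, and for the calprotectin genes S100a8 and S100a9, 5′ to 3′ on the strand of the gene, with matches to TATAAA and TGANTCA in capitals. TATAAA is the core of a TATA box, and TGANTCA holds the letters that AP-1 factors read. Both were chosen after the promoters were seen. The sequences are from chr9:69453543-69453682 (+), chr3:93520356-93520495 (+), chr3:90668931-90669070 (+) and chr3:90695722-90695861 (−).
Anxa2: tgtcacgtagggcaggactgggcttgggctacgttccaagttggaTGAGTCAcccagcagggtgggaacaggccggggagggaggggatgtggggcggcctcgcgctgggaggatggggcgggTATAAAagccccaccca
S100a11: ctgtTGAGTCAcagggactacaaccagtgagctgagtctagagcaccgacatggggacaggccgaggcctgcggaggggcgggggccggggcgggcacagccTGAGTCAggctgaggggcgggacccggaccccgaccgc
S100a8: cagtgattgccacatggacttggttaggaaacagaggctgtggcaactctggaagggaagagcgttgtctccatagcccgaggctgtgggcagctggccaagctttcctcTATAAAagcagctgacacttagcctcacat
S100a9: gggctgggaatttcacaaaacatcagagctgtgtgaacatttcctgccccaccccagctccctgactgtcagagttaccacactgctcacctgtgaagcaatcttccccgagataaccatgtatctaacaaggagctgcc
The calprotectin genes, which share a product, do not share these letters. S100a8 has a TATAAA that begins 30 bases before its start, and the S100a9 window shown has no match. Anxa2 has a TATAAA 17 bases before its start and a TGANTCA 95 bases before it, and S100a11 has a TGANTCA at 136 and at 38 bases. Over the 250 bases before the start, searched on both strands, TATAAA was found in 2 of the 9 promoters of the described genes and in 12.4% of all 32851 promoters. TGANTCA was found in 2 of 9 and in 6.75% of all, and GGGCGG, the GC box, in 3 of 9 and in 32.7% of all. No match overlapped another in the sequences shown. A match is a description of the letters only.

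The 9 libraries held between 2318148 and 10764182 counts, and no pair of them was identical. Ddt checked the labels, with 1205 to 4820 counts in the Apoe-/- libraries and 6 to 27 in the Mif-2-/- Apoe-/- libraries. Hepatocyte markers took between 6.98% and 15.6% of the counts of a library. Across 16860 genes tested with edgeR (quasi-likelihood test, Benjamini-Hochberg adjustment), 22 passed an adjusted p-value of 0.05, and the biological coefficient of variation was 0.909. Over all of them the log2 fold change had a median of −0.17, and of 0.0015 with TMMwsp scaling, so values near zero depend on the scaling. Levels are given as CPM, which are read counts scaled to the size of the library with TMM normalization, fold changes as Apoe-/- over Mif-2-/- Apoe-/-, and libraries are listed in the order of their replicate numbers.

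S100a10 stood apart from the other 9 genes. In the Apoe-/- libraries it was at 310.3, 293, 421, 441 and 123 CPM, from 2262, 2185, 897, 2190 and 636 reads. In the Mif-2-/- Apoe-/- libraries it was at 65.3, 116, 34.3 and 64.9 CPM, from 321, 204, 136 and 284 reads. The lowest Apoe-/- library, replicate 5, lay just above the highest Mif-2-/- Apoe-/- library, replicate 2, so that the genotypes did not overlap, but nearly met. The means were 318 ± 127 CPM (n = 5, SD) and 70.1 ± 33.8 CPM (n = 4, SD), which is 4.55-fold or 2.19 (SE 0.44) on the log2 scale. In bulk tissue, fewer cells of a type and less RNA per cell cannot be told apart. S100a10 was the only 1 of the 10 genes whose genotypes did not overlap, against 4.26% of all genes tested.

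Anxa2, which carries S100a10 at the membrane and keeps it from being degraded, differed in the same direction by less. Its levels were 147, 113, 89.7, 152 and 62.0 CPM in Apoe-/- and 67.7, 56.8, 46.4 and 48.7 CPM in Mif-2-/- Apoe-/- livers. The Apoe-/- replicate 5, also the lowest of its group for S100a10, fell below the Mif-2-/- Apoe-/- replicate 1, and the genotypes overlapped by these libraries alone. The means were 113 ± 38.2 CPM (n = 5, SD) and 54.9 ± 9.65 CPM (n = 4, SD), with a log2 fold change of 1.04 (SE 0.35) or 2.05-fold.

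Since the fold change of S100a10 exceeded that of Anxa2, the ratio of the partner RNAs also differed. Per kilobase of exon, there were 6.49, 7.99, 14.5, 8.95 and 6.12 S100a10 reads for each Anxa2 read in the Apoe-/- libraries. In the Mif-2-/- Apoe-/- libraries the ratio was 2.97, 6.28, 2.28 and 4.10. Per kilobase, S100a10 RNA was thus in excess of Anxa2 RNA in every library of both genotypes, although the proteins pair in equal numbers. This excess depends on the exon lengths used, 1212 bases for S100a10 and 3731 for Anxa2. In CPM, Anxa2 was above S100a10 in Mif-2-/- Apoe-/- replicates 1 (67.7 against 65.3) and 3 (46.4 against 34.3). The ratio averaged 8.80 ± 3.36 (n = 5, SD) and 3.91 ± 1.75 (n = 4, SD), and the groups overlapped, because Mif-2-/- Apoe-/- replicate 2 exceeded Apoe-/- replicate 5. As the ratio is made of values used to choose the genes, it has no test either.

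**Figure D1:**
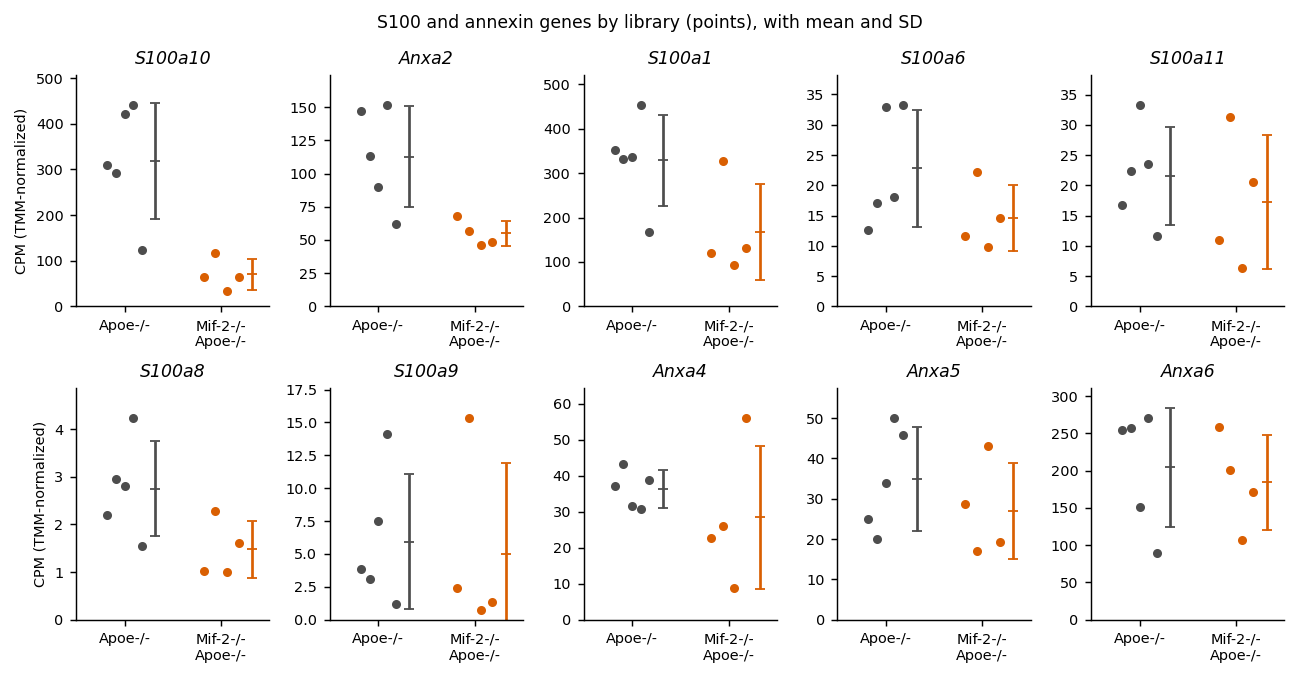
Levels of the 10 S100 and annexin genes in each library (points; vertical axis, TMM-normalized CPM, with its own scale in each panel) for Apoe-/- (grey, n = 5) and Mif-2-/- Apoe-/- livers (orange, n = 4), with the mean and SD at the right of each group, clipped at 0 for S100a9. S100a10 is the only panel in which the genotypes do not overlap, with 123 CPM in the lowest Apoe-/- and 116 CPM in the highest Mif-2-/- Apoe-/- library.

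S100a1, a calcium sensor best known from heart muscle, had the highest level of the 10 genes per kilobase of exon. It was at 352, 332, 337, 454 and 168 CPM in Apoe-/- and at 120.0, 328, 92.7 and 132 CPM in Mif-2-/- Apoe-/- livers. Its pattern was close to that of S100a10 except in Mif-2-/- Apoe-/- replicate 2, which reached the Apoe-/- range while the other 3 libraries of its genotype stayed below every Apoe-/- library. The means were 329 ± 103 CPM (n = 5, SD) and 168 ± 108 CPM (n = 4, SD), with a log2 fold change of 0.97 (SE 0.41) that became 1.61 without that library. S100a10 reads per kilobase stood at 0.504, 0.504, 0.715, 0.557 and 0.421 for each S100a1 read in Apoe-/- and at 0.312, 0.202, 0.212 and 0.281 in Mif-2-/- Apoe-/- livers. So S100a10 was lower relative to S100a1 too, in all 4 Mif-2-/- Apoe-/- libraries.

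S100a11, which binds Anxa1 and lies next to S100a10, had a smaller fitted difference. It was at 16.7, 22.4, 33.3, 23.6 and 11.6 CPM in Apoe-/- and at 10.98, 31.2, 6.30 and 20.6 CPM in Mif-2-/- Apoe-/- livers. The ranges overlapped almost fully, and the log2 fold change was 0.32 (SE 0.59), between 0.044 without Mif-2-/- Apoe-/- replicate 3 and 0.85 without replicate 2. Per kilobase, the ratio of S100a10 to S100a11 was 7.82, 5.52, 5.33, 7.89 and 4.47 in Apoe-/- and 2.51, 1.56, 2.29 and 1.33 in Mif-2-/- Apoe-/- livers, without overlap. The fitted fold was 4.55 for S100a10 and 1.25 for S100a11.

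S100a6, or calcyclin, a partner of Anxa11, was at 12.6, 17.0, 32.9, 18.1 and 33.3 CPM in Apoe-/- and at 11.6, 22.1, 9.83 and 14.6 CPM in Mif-2-/- Apoe-/- livers. Here Apoe-/- replicate 5 was the highest of all libraries, whereas it was the lowest of its group for S100a10, Anxa2 and S100a1. The log2 fold change was 0.65 (SE 0.55), 0.47 without that library and 0.99 without Mif-2-/- Apoe-/- replicate 2.

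The calprotectin genes were near the limit of detection. S100a8 had 16, 22, 6, 21 and 8 reads in the Apoe-/- and 5, 4, 4 and 7 reads in the Mif-2-/- Apoe-/- libraries, or 2.20, 2.95, 2.82, 4.23 and 1.55 CPM against 1.02, 2.27, 1.01 and 1.60 CPM. A floor of 3 reads stands for 0.402 to 1.70 CPM depending on the library, so the Mif-2-/- Apoe-/- values were barely above it, and intervals and floors cover counting error only. S100a9 had 28, 23, 16, 70 and 6 reads in Apoe-/- and 12, 27, 3 and 6 reads in Mif-2-/- Apoe-/- libraries, or 3.84, 3.08, 7.51, 14.1 and 1.16 CPM against 2.44, 15.3, 0.756 and 1.37 CPM. The highest library for S100a9 was replicate 4 in Apoe-/- mice, at 14.1 CPM with 7.51 CPM in the next. In Mif-2-/- Apoe-/- mice it was replicate 2, at 15.3 CPM with 2.44 CPM in the next. The log2 fold changes were 0.91 (SE 0.98) for S100a8 and 0.29 (SE 1.09) for S100a9, each smaller than its error, and that of S100a9 moved between −0.26 without Apoe-/- replicate 4 and 2.05 without Mif-2-/- Apoe-/- replicate 2.

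Among the annexins, Anxa6, an annexin of endosomal membranes, had the highest level per kilobase and the smallest fitted difference. It was at 254, 257, 151, 271 and 89.1 CPM in Apoe-/- and at 259, 200.5, 107 and 171 CPM in Mif-2-/- Apoe-/- livers. The log2 fold change of Anxa6 was 0.15 (SE 0.37), between −0.040 without Mif-2-/- Apoe-/- replicate 3 and 0.36 without replicate 1. Anxa4, typical of polarized epithelia, varied within the Mif-2-/- Apoe-/- group more than between the groups. It was at 37.2, 43.3, 31.5, 30.8 and 38.9 CPM in Apoe-/- against 22.8, 26.1, 8.82 and 56.0 CPM, and its log2 fold change of 0.35 (SE 0.50) was 0.92 without Mif-2-/- Apoe-/- replicate 4 and 0.05 without replicate 3. Anxa5, the phosphatidylserine binder used to stain apoptotic cells, was at 25.0, 20.0, 33.8, 50.0 and 45.9 CPM in Apoe-/- against 28.7, 17.0, 43.1 and 19.2 CPM. Its log2 fold change of 0.37 (SE 0.47) was 0.23 without Mif-2-/- Apoe-/- replicate 4 and 0.69 without replicate 3. Anxa2 had the largest fold change of the 4 annexins described. Nothing about its binding to S100a10 is read from that rank, since the genes were chosen with these values known.

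All 10 genes passed the filter on low counts, and each had a fitted log2 fold change above 0, against 43.5% of all genes tested. Their median was 0.51, against −0.17 for all genes. The edgeR test called 0 of the 10, against 0.130% of all genes tested, and 3 of them had an unadjusted edgeR p-value under 0.05, against 15.5% of all genes tested. DESeq2 called 2 of the 10, S100a10 and Anxa2, against 4.93% of the 14001 genes with an adjusted p-value. As the genes were chosen with this contrast known, nothing is read from these counts.

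The 19 S100 and annexin genes outside the set did not show a difference that passed a test. Of the 13 with enough counts, 0 passed an adjusted p-value of 0.05 by edgeR or by DESeq2. Among the 13, 1 had an unadjusted edgeR p-value under 0.05, S100g, against 15.5% of all genes tested. S100g, the intestinal calcium carrier calbindin-D9k, had 5, 12, 0, 0 and 6 reads in the Apoe-/- libraries and 0 in the other 4, close to the floor throughout, so no fold is given. The remaining S100 genes had log2 fold changes of 1.44 (SE 0.93) for S100a4, a marker of motile and fibroblast-like cells, 1.07 (SE 0.99) for S100b, best known from glia, 1.04 (SE 1.89) for S100a3, 0.66 (SE 0.41) for S100a16 and 0.25 (SE 0.39) for S100a13, which helps to export growth factors. The value of S100a3 rested on Apoe-/- replicate 5, with 1, 0, 0, 0 and 117 reads against 0, 7, 19 and 1. Over all libraries the 6 S100 genes were fitted above 0 under the TMM, RLE and TMMwsp scalings, with a median of 1.06 under TMM, or 1.04, the value of S100a3, without S100g. Without Apoe-/- replicate 5 the reads of S100a3 were more in Mif-2-/- Apoe-/- libraries, so the count of 6 rests on that library.

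The other annexins showed no common direction. Anxa1, the glucocorticoid-induced ligand of formyl peptide receptors, was at 9.87 ± 4.90 CPM (n = 5, SD) and 9.64 ± 3.26 CPM (n = 4, SD), or 0.04 (SE 0.70) as a log2 fold change. The values were 0.49 for Anxa13, 0.31 for Anxa7, −0.14 for Anxa3 and Anxa8, −0.78 for Anxa9 and −1.82 (SE 1.61) for Anxa11, the partner of S100a6. Anxa11 had 0 to 22 reads in the Apoe-/- and 0 to 52 reads in the Mif-2-/- Apoe-/- libraries, so its value rests on few libraries. Of the 7, 3 were above 0 and 4 below, with a median of −0.14, whereas with TMMwsp 5 were above and 2 below. S100a14, S100a7a and Anxa10 had 21, 2 and 1 reads in all and stayed below the filter, and S100a5, S100a7l2 and S100z had 0 counts.

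**Figure D2:**
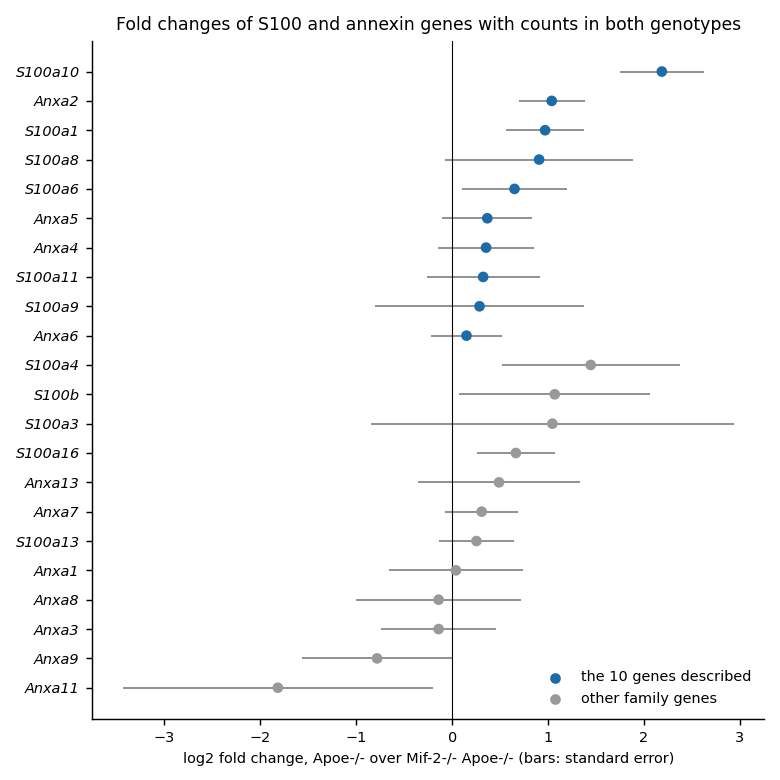
Log2 fold change, Apoe-/- over Mif-2-/- Apoe-/- livers (horizontal axis; bars, standard error), of the 10 genes described (blue) and of the other S100 and annexin genes with counts in both genotypes (grey). The 10 blue points all lie above 0, from 0.15 for Anxa6 to 2.19 for S100a10, as the choice of these genes allowed, and the grey points lie between −1.82 for Anxa11 and 1.44 for S100a4.

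Levels could be ranked only per exon length. In Apoe-/- livers S100a1 led with 474 ± 148 CPM per kilobase (n = 5, SD), followed by S100a10 at 262 ± 105 and Anxa6 at 69.7 ± 27.4. S100a11 at 42.1 ± 15.9, Anxa2 at 30.2 ± 10.2, Anxa5 at 19.7 ± 7.29, S100a6 at 16.7 ± 7.04 and S100a9 at 11.4 ± 9.80 followed, and Anxa4 at 7.82 ± 1.13 and S100a8 at 3.96 ± 1.44 closed the order. The order S100a1, S100a10, Anxa6 held in each of the 5 libraries, as did Anxa4 above S100a8, whereas from Anxa6 down to Anxa4 each neighbouring pair changed places in at least 1 library.

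In Mif-2-/- Apoe-/- livers the order was nearly the same, but S100a10 at 57.8 ± 27.9 CPM per kilobase (n = 4, SD) ranked below Anxa6 at 62.9 ± 21.6. These neighbours did not differ beyond their spread, with Anxa6 higher in 3 of 4 libraries. S100a1 at 243 ± 155 was above both in all 4 libraries, and S100a10 was above S100a11, at 33.8 ± 21.6, in all 4. Anxa5 at 15.2 ± 6.67 and Anxa2 at 14.7 ± 2.59 also stood in reverse of their Apoe-/- order, without separating.

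**Figure D3:**
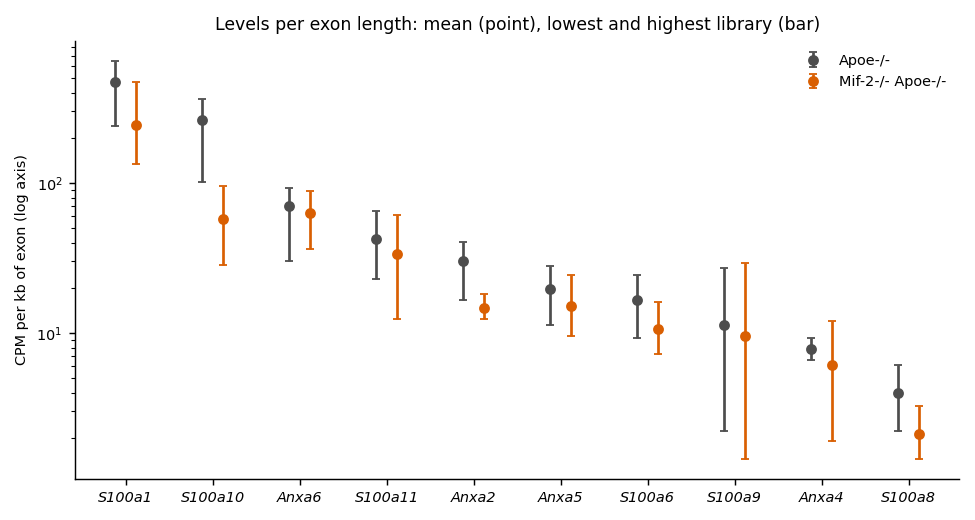
Level per kilobase of exon (vertical log axis, CPM per kb) of the 10 genes, with the mean as a point and the lowest to the highest library as a bar, for Apoe-/- (grey, n = 5) and Mif-2-/- Apoe-/- livers (orange, n = 4). S100a10 is second to S100a1 in the Apoe-/- group at 262 and falls between Anxa6 and S100a11 in the Mif-2-/- Apoe-/- group at 57.8.

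Whether partners varied together from library to library was asked within the genotypes, which does not use the difference between them. The 4 pairs were compared on log2(CPM + 0.5) after subtraction of each genotype's mean, with two-sided exact permutation tests over the 2880 arrangements within genotypes. S100a8 and S100a9, whose proteins form calprotectin, had r = 0.84 over the 9 libraries (exact permutation p = 0.0094, 0.0375 adjusted over the 4 pairs) and rho = 0.72 (exact permutation p = 0.0549, adjusted 0.219). The correlation was 0.90 in the Apoe-/- and 0.80 in the Mif-2-/- Apoe-/- libraries, and 0.73 without Apoe-/- replicates 4 and 5, the 2 farthest in S100a8. The rank test did not pass 0.05, and the reads behind S100a8 numbered 22 at most. The permutation test cannot tell partners that vary together from libraries whose makeup moves many genes together. Pairs of unrelated genes were not compared.

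S100a10 and Anxa2 had r = 0.65 (exact permutation p = 0.0740, adjusted 0.148) and rho = 0.50 (exact permutation p = 0.213, adjusted 0.426). Without the 2 libraries farthest in S100a10, Apoe-/- replicate 5 and Mif-2-/- Apoe-/- replicate 3, r was −0.06, so the relation rested on those libraries. S100a11 with Anxa1 had r = −0.10 (exact permutation p = 0.794, adjusted 0.904) and rho = 0.10 (exact permutation p = 0.833, adjusted 0.952). S100a6 with Anxa11 had r = 0.05 (exact permutation p = 0.904, adjusted 0.904) and rho = 0.03 (exact permutation p = 0.952, adjusted 0.952). Without their 2 farthest libraries r was −0.23 and −0.15, and neither of these known partner pairs varied together detectably with 9 libraries. Anxa11 had 0, 19, 0, 0 and 22 reads in the Apoe-/- and 0, 2, 52 and 24 reads in the Mif-2-/- Apoe-/- libraries. With so many values at 0, the test cannot decide whether it varies with S100a6.

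**Figure D4:**
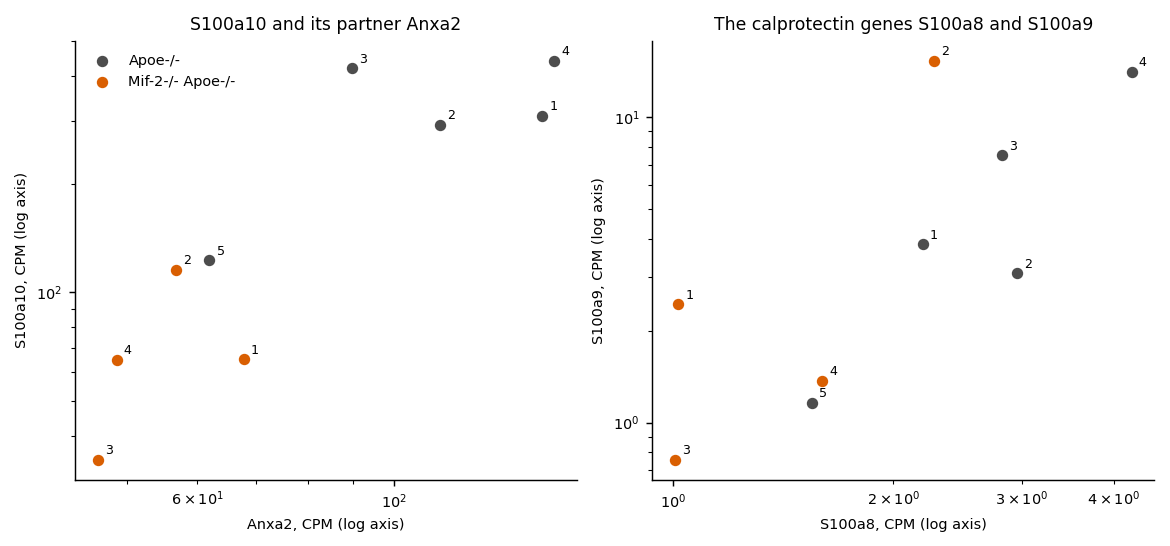
Left, S100a10 (vertical axis) against Anxa2 (horizontal axis), and right, S100a9 against S100a8, in CPM on log axes, with 1 point for each library numbered by replicate (grey, Apoe-/-; orange, Mif-2-/- Apoe-/-). Apoe-/- replicate 5 lies close to Mif-2-/- Apoe-/- libraries in both panels, at 123 CPM of S100a10 and 1.16 CPM of S100a9.

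Over all 9 libraries, with the genotypes pooled, the genes most like S100a10 were H2bc4, a histone H2B gene with near-identical copies that may share its reads (r = 0.995), Saa3, an acute-phase serum amyloid (r = 0.990), Ddrgk1, an adaptor of the ubiquitin-like modifier UFM1 (r = 0.987), Atxn10 (r = 0.985) and Fis1, a mitochondrial fission factor (r = 0.984). These are descriptions over 8097 genes of at least 10 CPM that share the libraries, their depth and the difference between the genotypes. Saa3 was at 338 ± 133 CPM (n = 5, SD) in Apoe-/- and 81.2 ± 47.6 CPM (n = 4, SD) in Mif-2-/- Apoe-/- livers. The log2 fold changes were 2.06 (SE 0.48) for Saa3 and 1.97 (SE 0.42) for H2bc4, given without a test because their likeness to S100a10 includes its difference between the genotypes.

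The described genes were less like S100a10 than these. S100a1 had r = 0.93 and ranked 225 of 8097, and Anxa2 had r = 0.88 and ranked 547. S100a11 had r = 0.70, Anxa4 0.50, S100a6 0.49, Anxa6 0.45 and Anxa5 0.07. The genes most like Anxa2 were Mrps24 of the mitochondrial ribosome (r = 0.956), Cdk5rap3 (r = 0.947), the membrane-curving Bin1 (r = 0.944), Hsd17b4 of peroxisomal fatty acid oxidation (r = 0.944) and the proteasome subunit Psmd3 (r = 0.940), and S100a10 ranked 131 for Anxa2.

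Genes whose products work with the S100a10 and Anxa2 complex were taken as a list, which was drawn up with earlier results of these data known. Of the 14 genes reported here 12 were tested, 6 above 0 and 6 below, with a median log2 fold change of 0.068, which was 0.24 with TMMwsp. EdgeR and DESeq2 each called 0 of them, and 3 had an unadjusted edgeR p-value under 0.05, against 15.5% of all genes tested.

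Plasminogen and its receptors had no common direction. Plg, the precursor of plasmin and the highest of the list by CPM, was at 785 ± 171 CPM (n = 5, SD) against 532 ± 197 CPM (n = 4, SD), or 0.56 as a log2 fold change, with an edgeR adjusted p-value of 0.415. Plgrkt, another plasminogen receptor, had −1.20 (SE 0.47), with an edgeR adjusted p-value of 0.254. Serpinf2, the plasmin inhibitor, had 0.66 and Ahnak 0.29, while Dlc1, a tumour suppressor that binds S100a10, had −1.02 (SE 0.40), with edgeR adjusted p-values of 0.367, 0.855 and 0.244. The channel genes Trpv5 and Trpv6 stayed below the filter.

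Of the receptors of calprotectin and of Anxa1, 8 were tested, 5 above 0 and 3 below, with a median log2 fold change of 0.21, or 0.14 without Ly96, which had 0 counts in every Mif-2-/- Apoe-/- library. EdgeR called 0 of them, and 2 had an unadjusted edgeR p-value under 0.05, Bsg and Ly96, against 15.5% of all genes tested. Ly96, with at most 9 reads in a library, passed the filter through the Apoe-/- libraries alone, so nothing is read from its p-value. DESeq2 called 1, against 4.93% of the genes with an adjusted p-value. Bsg, a widely expressed surface protein that binds S100a9 and the highest of the list by CPM, was at 822 ± 206 CPM (n = 5, SD) against 375 ± 159 CPM (n = 4, SD), or 1.13 (SE 0.34) as a log2 fold change, with adjusted p-values of 0.169 by edgeR and 0.0322 by DESeq2. Ager, the receptor for advanced glycation end products, had −1.14 (SE 0.87), and Tlr4, Ly96, Fpr1 and Fpr2 averaged under 1.5 CPM in both genotypes.

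Markers of cell types that carry these genes were read in the same libraries. The 12 neutrophil markers summed to 17.0 to 38.5 CPM in the Apoe-/- and 35.1 to 137 CPM in the Mif-2-/- Apoe-/- libraries, and Ly6g had 0 counts. Of the 9 tested, 0 were called by edgeR or DESeq2, and 1 had an unadjusted edgeR p-value under 0.05, against 15.5% of all genes tested. Of these 9 markers, 8 were below 0. Most were thus fitted in the direction opposite to S100a8, also with TMMwsp (7 of 9), but the fold change of S100a8 was smaller than its error. Csf3r averaged 25.7 CPM in Apoe-/- and 40.5 CPM in Mif-2-/- Apoe-/- livers. The other tested markers averaged at most 3.58 and 13.9 CPM, most with 0 reads in some library, so no direction is read from them. Mif-2-/- Apoe-/- replicate 3, the highest in neutrophil markers, was the lowest in S100a9. The 12 macrophage and monocyte markers summed to 1150 to 1695 CPM and 1342 to 1534 CPM, with 8 above 0 and 4 below. Of the 12, 2 had an unadjusted edgeR p-value under 0.05, against 15.5% of all genes tested. DESeq2 called 1 of the 12, against 4.93% of the genes with an adjusted p-value. It was Cd5l, a protein secreted by liver macrophages. Its level was 470 ± 178 CPM (n = 5, SD) against 205 ± 67.0 CPM (n = 4, SD), with an edgeR adjusted p-value of 0.175 and a DESeq2 adjusted p-value of 0.0360.

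Hepatocyte markers were set beside S100a10 library by library. Their share of all counts was 10.99%, 10.8%, 12.4%, 12.8% and 6.98% in the Apoe-/- libraries, against 8.56%, 15.6%, 7.34% and 8.97% where Mif-2 was also deleted. The 5 Apoe-/- libraries had the same order in both, with replicate 5 lowest, and in Mif-2-/- Apoe-/- mice replicate 2 was highest and replicate 3 lowest in both, while replicates 1 and 4, nearly level in each, changed places. Between the genotypes the order broke, because Mif-2-/- Apoe-/- replicate 2 had the highest share of all 9 libraries and yet, at 116 CPM, less S100a10 than any Apoe-/- library. Following the share within a genotype was not particular to S100a10. S100a9 had the order of the share in the Apoe-/- libraries too. In Mif-2-/- Apoe-/- mice S100a9 was likewise highest in replicate 2 and lowest in replicate 3. With this share as a covariate, a fit added after seeing the data, the log2 fold change was 1.95 for S100a10, 0.92 for Anxa2, 0.88 for S100a1 and −0.023 for Anxa6, and 9 of the 10 genes stayed above 0. The share came mostly from Alb, Apoa1 and Ttr, which were not among the markers tested. Of the 12 hepatocyte markers, 9 were tested, with 5 above 0, 4 below and 0 called by edgeR or DESeq2. Of these 9, 4 had an unadjusted edgeR p-value under 0.05, where the share over all genes was 15.5%, and they went both ways, with log2 fold changes of −1.05 for Tat against 0.96 for Asgr1, 1.41 for Tdo2 and 0.85 for Ahsg.

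The other lists had 0 genes called by edgeR or DESeq2, and 0 at an unadjusted edgeR p-value under 0.05, against 15.5% of all genes tested. The median log2 fold change was 0.12 over 8 cholangiocyte markers, −0.36 over 11 stellate cell and fibroblast markers, 0.43 over 10 endothelial markers and 0.73 over 4 mesothelial markers. Their summed levels ranged from 158 to 237 against 127 to 445 CPM for cholangiocytes, from 230.3 to 464 against 293 to 668 CPM for stellate cells and fibroblasts, from 440.0 to 914 against 278 to 1023 CPM for endothelium and from 7.06 to 43.5 against 1.73 to 23.7 CPM for mesothelium. By mean CPM over the 9 libraries, with no regard to length, the highest tested marker of each list was Csf3r (neutrophils) with a log2 fold change of −0.65, Clec4f (liver macrophages) with −0.03, Spp1 (cholangiocytes) with 0.15, Col1a1 (stellate cells and fibroblasts) with −0.36, Stab1 (endothelium) with −0.44, Msln (mesothelium) with 0.89 and Ahsg (hepatocytes) with 0.85. The next endothelial and hepatocyte markers went the other way, with 0.89 for Egfl7 and −0.35 for Hpd, and Hpd was above Ahsg in Mif-2-/- Apoe-/- livers. The genotypes overlapped in the summed levels of cholangiocyte, stellate cell, endothelial and mesothelial markers, and the part of any cell type in the levels of the S100 and annexin genes was not tested.

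**Figure D5:**
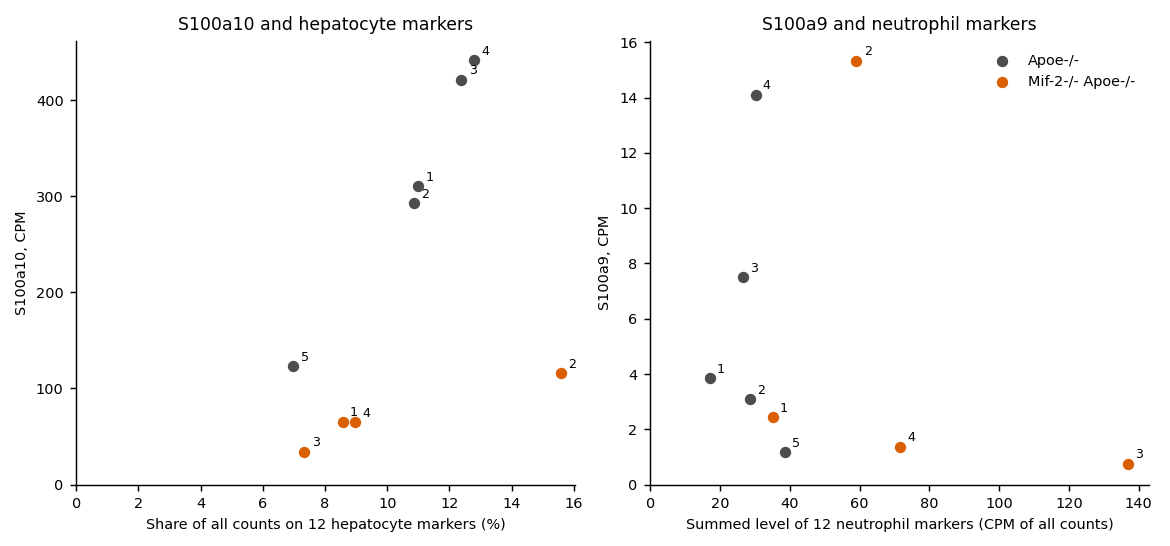
Left, S100a10 (vertical axis, CPM) against the share of all counts on 12 hepatocyte markers (horizontal axis, %), and right, S100a9 (CPM) against the summed level of 12 neutrophil markers (CPM of all counts), with 1 point for each library numbered by replicate (grey, Apoe-/-; orange, Mif-2-/- Apoe-/-). Mif-2-/- Apoe-/- replicate 2 lies far to the right on the left panel, at 15.6% and 116 CPM, below every Apoe-/- library.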

How the data were processed

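Per the labels and the study's methods, lysates of several frozen, OCT-embedded liver sections were combined, poly(A) RNA was captured with oligo-dT beads, and Smart-seq2 libraries were sequenced. The authors used FastQC, cutadapt and HISAT2 (mm10 in the submitters' processing notes) and deposited raw whole-number counts of reads on gene exons. The counting tool, its annotation and the removal of PCR duplicates are not given in the sources used here. The table holds 1 line that names no gene, a repeated header that was not used. RefSeq GRCm38.p6 gave a symbol to 25275 of 27179 Entrez identifiers. The study's text names fewer Apoe-/- mice than there are Apoe-/- libraries, and all 5 were used. Whether each of them is a separate mouse is not stated, so n counts libraries. Libraries were grouped by the genotype label, and no label names a batch.

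A gene needed a count of 1 or more in 3 or more libraries of a genotype. The 10 most abundant were left out, and 16860 were tested with edgeR 4.0.16 (quasi-likelihood F test, TMM, R 4.3.3, limma 3.58.1) on genotype alone, with Benjamini-Hochberg adjustment and a threshold of 0.05. DESeq2 1.42.0 on the same genes gave 2859 no adjusted p-value. Standard errors were derived from the log2 fold change and its F statistic. Exon lengths for the values per kilobase came from the GENCODE mouse annotation, with the exons of all transcripts of a gene merged. They can differ from the length of the transcript that is expressed. P-values measure the spread between these libraries. The edgeR script was tested on simulated counts. Figures used Python 3.11.15, pandas 2.3.3, numpy 2.4.6 and matplotlib 3.10.9. Partner pairs were tested on log2(CPM + 0.5).

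The members and all gene lists were chosen with earlier results of these data known. Of the list of S100a10 and Anxa2 partners, 1 gene is not reported here. Named are the 10 genes, the other S100 and annexin genes, list genes that were called, the most abundant of a list or at 0, the 5 genes most like S100a10 and Anxa2, and Ddt. Egfl7, Hpd, Tat, Asgr1, Tdo2, Plgrkt, Serpinf2, Ahnak, Dlc1, Ager and the low receptors were named after their values were seen. Alternatives were RLE and TMMwsp scaling, no filter, edgeR's filterByExpr, the 10 most abundant genes kept, DESeq2, a replicate block, a pseudocount of 2, Spearman's rho and each library left out. DESeq2 on all genes with a count and the hepatocyte covariate were added after seeing the data.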

Additional observations from a re-analysis of the deposited data

Results flagged for a closer look

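Within each genotype, the 23 tested S100 and annexin genes were searched for a library far from the others of its group by Dixon's criterion, which flags about 1 in 20 groups by chance. Of 46 groups, 4 had such a library, 2 of them among the 10 genes described. S100a1 was at 328 CPM in Mif-2-/- Apoe-/- replicate 2, against 92.7 to 132 CPM in the other 3 libraries. S100a9 was at 15.3 CPM in the same library, against 0.756 to 2.44 CPM. S100a3 was at 22.7 CPM in Apoe-/- replicate 5, against 0 to 0.137 CPM in the other 4. Anxa1 was at 4.80 CPM in Mif-2-/- Apoe-/- replicate 4, below the 10.8 to 11.9 CPM of the others. The cause was not tested.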

How the results depend on the processing

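The number of genes called by edgeR, 22, depended on the setting. It was 690 with DESeq2, 739 with DESeq2 on all genes with a count, 560 with the replicate block and 284 with the hepatocyte covariate, and between 9 (without Apoe-/- replicate 3) and 262 (without Mif-2-/- Apoe-/- replicate 2) with 1 library left out, with 126 without Apoe-/- replicate 5. Libraries of the same number did not deviate together (r between −0.03 and 0.14 over 8153 genes). The numbers thus gave no sign of pairing, which this check cannot exclude. The other S100 and annexin genes kept 0 calls in every alternative run.

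The log2 fold change of S100a10 lay between 1.95 and 2.63 and that of Anxa2 between 0.92 and 1.23 over 18 alternatives, and S100a1, S100a6, S100a8, S100a11, Anxa4 and Anxa5 stayed above 0 in each of theirs. Between 8 (without Mif-2-/- Apoe-/- replicate 3) and 10 of the 10 genes were above 0. Anxa6 was −0.023 with the hepatocyte covariate and −0.040 to 0.36 with 1 library left out. S100a9 was −0.26 to 2.05 with 1 library left out, and also −0.080 and −0.035 without Mif-2-/- Apoe-/- replicates 3 and 4.

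For S100a10 with Anxa2, r was 0.73 with TMMwsp, then past 0.05, and 0.23 (without Apoe-/- replicate 5) to 0.79 (without Apoe-/- replicate 3, past 0.05, as was 0.68 without Mif-2-/- Apoe-/- replicate 1). For S100a8 with S100a9 it was 0.72 as Spearman's rho, no longer past 0.05, and 0.78 (without Mif-2-/- Apoe-/- replicate 2, no longer past 0.05) to 0.91. For S100a11 with Anxa1 it was 0.032 with TMMwsp, 0.10 as Spearman's rho and −0.34 to 0.078 with 1 library left out, including 0.039 and 0.0068. For S100a6 with Anxa11 it was −0.030 with a pseudocount of 2 CPM and −0.23 to 0.32 with 1 library left out, including −0.12 and −0.083. The cause was not tested. The depth limits S100a8 and S100a9, with as few as 3 reads in a library.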
